A study of Mus musculus with 14 samples.

Results

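Fatty acid oxidation, the stepwise shortening of fatty acids into acetyl-CoA, was examined through the transcripts of 39 mouse genes in aged brain. The genes were chosen by name, as the enzymes of the pathway and the transcription factor Ppara, under a rule that uses no measured value, though earlier results of these data were known, and all 39 were found among the 43346 genes of the count table. RNA came from a cross-section of brain with hippocampus and cortex of 14 female mice aged 23 months, 1 library per mouse, on a background labelled C57BL/6;SJL-Tg. NTG mice (n = 4) were non-transgenic littermates and received vehicle in the drinking water. APP/PS1 mice (n = 5), labelled AD in the series, carried mutant human APP and PS1 transgenes (genotype labelled APP/PS1 +/+) beside the mouse genes, and received the same vehicle; the promoters of the transgenes are not given in the sources used here. CP2-treated APP/PS1 mice (n = 5) received CP2, a tricyclic pyrone that mildly inhibits mitochondrial complex I, with a daily dose of 25 mg/kg that began at 9 months and lasted 14 months. An effect of CP2 in mice without the transgenes was not analysed here.

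To be oxidised, a long-chain fatty acid is first joined to coenzyme A by an acyl-CoA synthetase, then carried into mitochondria as an acylcarnitine by the carnitine shuttle. Inside, an acyl-CoA dehydrogenase, a hydratase, a second dehydrogenase and a thiolase remove acetyl-CoA in repeated rounds, and electrons from the first dehydrogenase pass through electron transfer flavoprotein to ubiquinone without passing through complex I. Peroxisomes shorten very long and branched chains with their own set of enzymes. Neurons are known for oxidising little fat, whereas astrocytes are regarded as the main site of this pathway in the brain. In bulk tissue, fewer cells of a type and less RNA per cell cannot be told apart.

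Total counts ranged from 70548781 to 106235625 per mouse, and counts on the ribosomal RNA-like genes Yam1 and AY036118 took 2.40% (mouse 16) to 7.50% (mouse 8). Mouse 16, an APP/PS1 mouse, stood apart, since its 9 striatal markers summed to 2940 CPM (counts scaled to a common library size) and the other 13 mice lay between 286 and 494. Main fits with vehicle-treated APP/PS1 mice include mouse 16, and only some results are also given without it. Values of these mice for the genes around the pathway are given only with it. Other libraries differed in composition too. Choroid plexus markers summed to 26.6 CPM in NTG mouse 9, 969 in NTG mouse 8 and 1380 in APP/PS1 mouse 17. Oligodendrocyte markers summed to 8036 CPM in NTG mouse 7 and to 5593 to 5979 CPM in the other NTG mice. The part of these differences in the results was not tested. Cortical and hippocampal markers were present throughout, with Slc17a7 at 653 to 951 CPM and Prox1 at 17.5 to 64.9 CPM. Endogenous App did not separate the genotypes, at 1330 to 1530 CPM, and so gave no check of the transgenes. Reactive astrocyte markers summed to 401 to 611 CPM in NTG, 1210 to 3060 in APP/PS1 and 1420 to 2460 in CP2-treated APP/PS1 mice, while 11 general astrocyte markers summed to 5190 to 5780, 4530 to 5030 and 4570 to 4950 CPM. The 11 microglial markers summed to 446 to 460 CPM in NTG, 832 to 1230 in APP/PS1 and 719 to 1050 CPM in CP2-treated mice. In APP/PS1 against NTG, 7 of 7 tested reactive astrocyte markers and 10 of 11 microglial markers were higher and 2 of 11 general astrocyte markers lower at an adjusted p under 0.05, and no marker of these lists was at 0 in all mice. Markers of muscle (23.2 to 37.5 CPM) and adipocytes (2.58 to 5.15 CPM), which are tissues rich in these enzymes, stayed low in all mice.

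Promoter windows of 300 bases, from 250 before to 50 after the annotated start, were available in RefSeq (GRCm38.p6, the mm10 build) for 33 of the 39 genes, as 37 sequences. They are shown for the gene called in the APP/PS1 comparison (Acsl6), for the called genes of the third comparison (Eci1 and Ppara) and for Hadhb, which shares its window with Hadha. Capitals mark AGGTCA, the core hexamer bound by nuclear receptors such as PPAR-alpha, on either strand.
Acsl6, first of 3 windows, chr11:54303574-54303873, + strand: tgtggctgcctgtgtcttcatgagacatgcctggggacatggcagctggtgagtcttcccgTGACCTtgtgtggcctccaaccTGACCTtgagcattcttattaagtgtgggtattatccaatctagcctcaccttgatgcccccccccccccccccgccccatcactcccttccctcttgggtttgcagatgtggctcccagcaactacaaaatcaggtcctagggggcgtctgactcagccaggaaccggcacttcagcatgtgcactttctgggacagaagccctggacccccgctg
Eci1, chr17:24426433-24426732, + strand: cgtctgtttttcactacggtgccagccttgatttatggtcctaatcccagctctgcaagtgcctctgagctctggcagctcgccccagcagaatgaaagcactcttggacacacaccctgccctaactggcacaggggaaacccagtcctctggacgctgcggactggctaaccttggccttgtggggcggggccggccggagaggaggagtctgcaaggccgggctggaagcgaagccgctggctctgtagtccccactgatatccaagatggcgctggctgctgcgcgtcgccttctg
Ppara, chr15:85735526-85735825, + strand: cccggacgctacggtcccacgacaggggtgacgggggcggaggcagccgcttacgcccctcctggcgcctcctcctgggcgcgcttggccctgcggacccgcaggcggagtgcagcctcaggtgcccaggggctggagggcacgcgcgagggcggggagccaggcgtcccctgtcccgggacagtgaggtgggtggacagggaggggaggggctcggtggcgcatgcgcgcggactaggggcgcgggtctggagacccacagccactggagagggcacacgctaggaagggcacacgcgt
Hadhb, chr5:30155003-30155302, + strand: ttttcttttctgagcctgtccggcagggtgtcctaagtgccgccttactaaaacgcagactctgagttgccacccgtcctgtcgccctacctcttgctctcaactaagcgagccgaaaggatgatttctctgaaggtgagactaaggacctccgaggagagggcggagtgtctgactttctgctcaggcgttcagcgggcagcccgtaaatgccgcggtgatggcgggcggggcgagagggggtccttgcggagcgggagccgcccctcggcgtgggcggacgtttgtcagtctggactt
The first Acsl6 window held 2 hexamers, both on the minus strand at -189 and -167 from the start. The other Acsl6 windows, which begin at chr11:54303954 and chr11:54314653, held none. The windows of Eci1, Ppara and Hadhb also held none. A hexamer on either strand was found in 6 of the 37 windows (16.2%; Acadm, Acadvl, Acsl6, Cpt1a, Cpt1c and Echs1), beside 16.3% of the 32851 windows of all genes. The longer form TNAAGGTCA is named for the estrogen-related receptors and contains the hexamer. It occurred in 1 window, the first of Acsl6 at -167, and in 1.28% of all windows. The DR1 repeat that PPAR-alpha binds with its partner RXR was in none of the 37 windows and in 0.0396% of all. The E-box CACGTG, which reads the same on both strands, was also in none, against 7.15% of all. The windows were richer in G and C, at a median of 60.7% beside 52.7%. Hadha and Hadhb, the subunits of the mitochondrial trifunctional protein, are transcribed away from each other, with starts 273 bases apart and 228 bases shared by their windows.

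Transcripts of the pathway were found in every mouse, at levels from 0.0395 to 37.2 RPKM in NTG mice. RPKM values, which the authors scaled for gene length and library size, were used to compare genes with each other. Acsl3, a synthetase of the endoplasmic reticulum and lipid droplets, led in NTG mice at 37.2 ± 1.12 RPKM (SD, n = 4). Cpt1c, the neuronal CPT1 isoform of the endoplasmic reticulum with little transferase activity, followed at 22.7 ± 1.97, and Acsl6, known for directing docosahexaenoic acid into brain phospholipids, at 21.8 ± 0.95 RPKM. Cpt1c and Acsl6 did not differ beyond their spread. Etfb and Etfa, the subunits of electron transfer flavoprotein, lay at 17.3 ± 0.96 and 14.9 ± 1.35 RPKM, and Acadvl, Acsl4, Acadsb, Acsl5 and Acadl came next within 13.0 to 13.8 RPKM, a run whose neighbours overlapped in their spread. At the bottom, Ehhadh, Ppara, Acad10 and Cpt1b were at 0.962, 0.708, 0.493 and 0.440 RPKM. Acox2, a peroxisomal oxidase of branched chains best known in liver, lay at 0.0395 RPKM, with 9 to 26 reads per mouse.

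**Figure D1:**
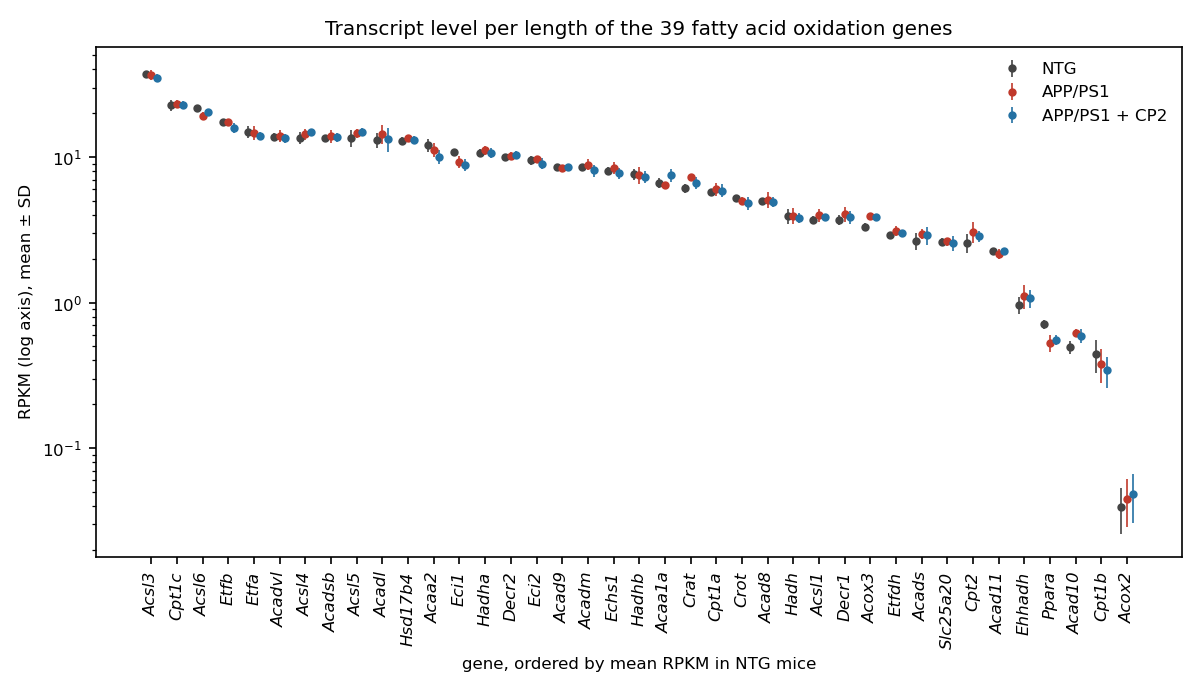
RPKM (vertical log axis) of the 39 genes, ordered by their mean in NTG mice, with points and bars for the mean ± SD of 4 NTG, 5 APP/PS1 and 5 CP2-treated APP/PS1 mice. Acsl3 leads at 37.2 RPKM and Acox2 ends the order at 0.0395 RPKM in NTG mice, and the groups lie close to each other for most genes.

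Within the gate of the carnitine shuttle, Cpt1c made up most of the CPT1 transcripts. Its share of the summed RPKM of the 3 CPT1 genes was 78.5% ± 1.27 in NTG, 78.4% ± 2.58 in APP/PS1 and 78.6% ± 2.33 in CP2-treated mice (SD, n = 4, 5 and 5). Cpt1a, the widely used mitochondrial isoform, held 20%, 20.3% and 20.2%, and Cpt1b, the muscle isoform, 1.53%, 1.28% and 1.17%. Among the 5 synthetases, Acsl3 held 41.5% of the summed RPKM in NTG, 41.2% in APP/PS1 and 39.3% in CP2-treated mice. Acsl6 held 24.3% ± 0.90, 21.7% ± 1.88 and 22.9% ± 1.30, and the shares of Acsl4 (15.0%, 16.1% and 16.7%) and Acsl5 (15.0%, 16.5% and 16.6%) were similar to each other. Acsl1, the isoform of oxidative tissues such as heart, held 4.15% to 4.49%.

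Replicate mice differed little for most of these genes, with a median coefficient of variation of 6.85% in NTG, 7.83% in APP/PS1 and 8.44% in CP2-treated mice. Over all 14 mice the highest CPM was a median of 1.31 times the lowest. Hsd17b4, the bifunctional enzyme of peroxisomes, was steadiest at 1.15 times, and Cpt1b (2.32 times) and Acox2 (2.55 times) varied most. Reads of Hadha stood to those of Hadhb at 1.09 to 1.29 in all 14 mice.

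**Figure D2:**
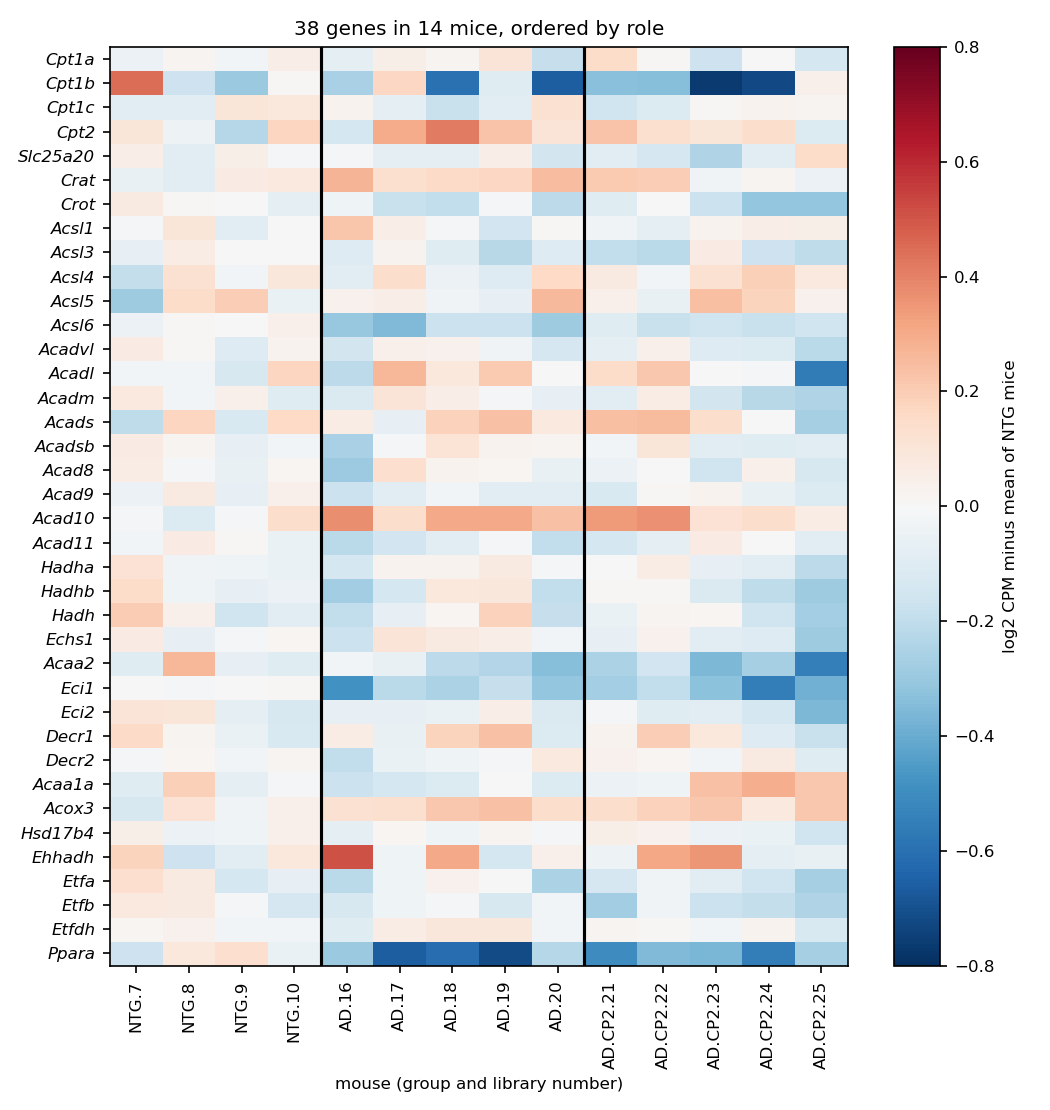
Log2 CPM of 38 genes (rows, ordered by role) in each of the 14 mice (columns), minus the mean of the 4 NTG mice; vertical lines part the groups and red is higher, blue lower. Values run from -0.76 to 0.51, 87.8% lie within 0.25 of the NTG mean, and the rows of Eci1 and Ppara are blue in all 10 APP/PS1 mice, treated or not.

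The first comparison asked how the pathway stood in aged APP/PS1 brain against NTG. Little of it differed: Acsl6 was the single gene that passed the test, and it was lower. Tests were edgeR's quasi-likelihood test over all genes with Benjamini-Hochberg adjustment, and 38 of the 39 genes passed the filter on low counts, Acox2 being the exception in each comparison. The 1 gene with an adjusted p under 0.05 was 2.63% of the 38, beside 5.68% of the 16417 genes tested (1.34% lower). At an unadjusted p under 0.05 there were 6 genes (15.8%, 3 higher and 3 lower), beside 18.7% of all genes (10.6% higher and 8.05% lower). The groups did not overlap for 5 genes (13.2%, 2 higher and 3 lower), beside 10% of all genes (5.93% higher and 4.11% lower). Both shares were near the background. Log2 fold changes were below 0 for 23 of the 38 genes, beside 51.2% of all genes. The median log2 fold change was -0.027, beside -0.0042 over all genes, and the median size of change was 0.073 beside 0.092. Without mouse 16, values were below 0 for 19 of the 38 genes and the median was -0.0001. With limma-voom and sample quality weights they were below 0 for 19, with a median of 0.0018, so neither fit kept the lean below 0. Leaving out other single mice gave 22 to 27.

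Acsl6 stood at 262, 272, 272 and 278 CPM in the NTG mice and at 220, 212, 240, 240 and 223 CPM in the APP/PS1 mice, so the groups did not overlap. It fell by 15.8% (log2 fold change -0.25, SE 0.05, edgeR adjusted p = 0.0212). The CP2-treated mice, at 253, 240, 242, 239 and 243 CPM, lay between the groups and overlapped the top of the APP/PS1 range. The call was lost when the ribosomal RNA-like share was a covariate (log2 fold change -0.19, adjusted p = 0.173) and on leaving out mouse 8, 9, 10 or 20 (adjusted p = 0.0646, 0.0665, 0.0694 and 0.0544). Without mouse 16 it held (log2 fold change -0.23, adjusted p = 0.0248). The ribosomal RNA-like share was 4.72% to 7.50% in NTG and 2.40% to 5.51% in APP/PS1 mice. The sum of the 11 general astrocyte markers named above also lay lower in all APP/PS1 mice. Of these markers 7 had a log2 fold change below 0 and 4 above 0. The part of the share or of these markers in the result was not tested beyond that covariate. The 8 dentate gyrus markers summed to 323 to 405 CPM in NTG, 270 to 318 in APP/PS1 and 317 to 342 with CP2, with log2 fold changes below 0 in APP/PS1 against NTG for 8 of 8, of which 5 had an unadjusted and 1 an adjusted p under 0.05. The 10 thalamic markers summed to 533 to 815, 258 to 597 and 530 to 791 CPM in the same order, with log2 fold changes below 0 for 10 of 10 in APP/PS1 against NTG and none at an adjusted p under 0.05. The part of these markers in the Acsl6 result was not tested.

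Eci1, the mitochondrial isomerase that moves double bonds of unsaturated chains into place, was nearly constant in NTG mice at 14.8, 14.5, 14.8 and 14.8 CPM. APP/PS1 mice had 10.5, 12.7, 12.4, 13.0 and 11.9 CPM, all below NTG, with mouse 16 lowest. The log2 fold change of -0.28 (SE 0.07) missed the threshold at an edgeR adjusted p of 0.0532. Eci1 passed in 6 of 17 alternative fits. These included DESeq2 (adjusted p = 0.00279), limma-voom (0.0206), and edgeR with RLE factors (0.0428) or all 3 groups (0.0396). The highest adjusted p of the alternatives was 0.292. Ppara, the nuclear receptor that drives many genes of this pathway in liver, was at 3.02, 3.60, 3.73 and 3.27 CPM in NTG and 2.76, 2.15, 2.224, 2.07 and 2.90 CPM in APP/PS1 mice, again with no overlap. Its log2 fold change was -0.48 (SE 0.13, edgeR adjusted p = 0.0632). Ppara passed in 5 of 17 alternative fits, among them DESeq2 (adjusted p = 0.0148), limma-voom (0.0144) and edgeR with all 3 groups (0.0207). The highest adjusted p of its alternatives was 0.293. With the ribosomal RNA-like share as a covariate neither gene was called, at log2 fold changes of -0.22 for Eci1 and -0.42 for Ppara. Without mouse 16 both passed, Eci1 at -0.23 (adjusted p = 0.0353) and Ppara at -0.53 (adjusted p = 0.0384), so that 3 genes, with Acsl6, were called, while 1474 of 16523 genes were called in that fit.

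On the higher side, none of the genes passed the adjusted threshold by edgeR with TMM factors and 3 had an unadjusted p under 0.05. Crat, which moves acetyl groups between coenzyme A and carnitine, was at 39.3, 38.6, 42.8 and 43.2 CPM in NTG and 49.3, 44.6, 45.4, 45.9 and 48.5 CPM in APP/PS1 mice (log2 fold change 0.20, SE 0.05, adjusted p = 0.0533), and it passed with DESeq2 (adjusted p = 0.0124) and with upper-quartile factors in edgeR (adjusted p = 0.0355). Acox3, a peroxisomal oxidase of methyl-branched chains, was at 34.6, 40.9, 37.0 and 38.8 against 41.1, 41.2, 43.9, 44.5 and 41.6 CPM (0.17, SE 0.06, adjusted p = 0.134). Neither pair of groups overlapped, though the lowest APP/PS1 value of Acox3 was close to the highest NTG value. Acad10, an acyl-CoA dehydrogenase family member, was at 3.69, 3.47, 3.69 and 4.11 against 4.82, 4.11, 4.59, 4.603 and 4.39 CPM, with groups that touched at 4.11 (log2 fold change 0.28, SE 0.09, adjusted p = 0.117). Without mouse 16 the log2 fold changes were 0.18 for Crat, 0.19 for Acox3 and 0.25 for Acad10 (edgeR adjusted p = 0.07, 0.0986 and 0.151).

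**Figure D3:**
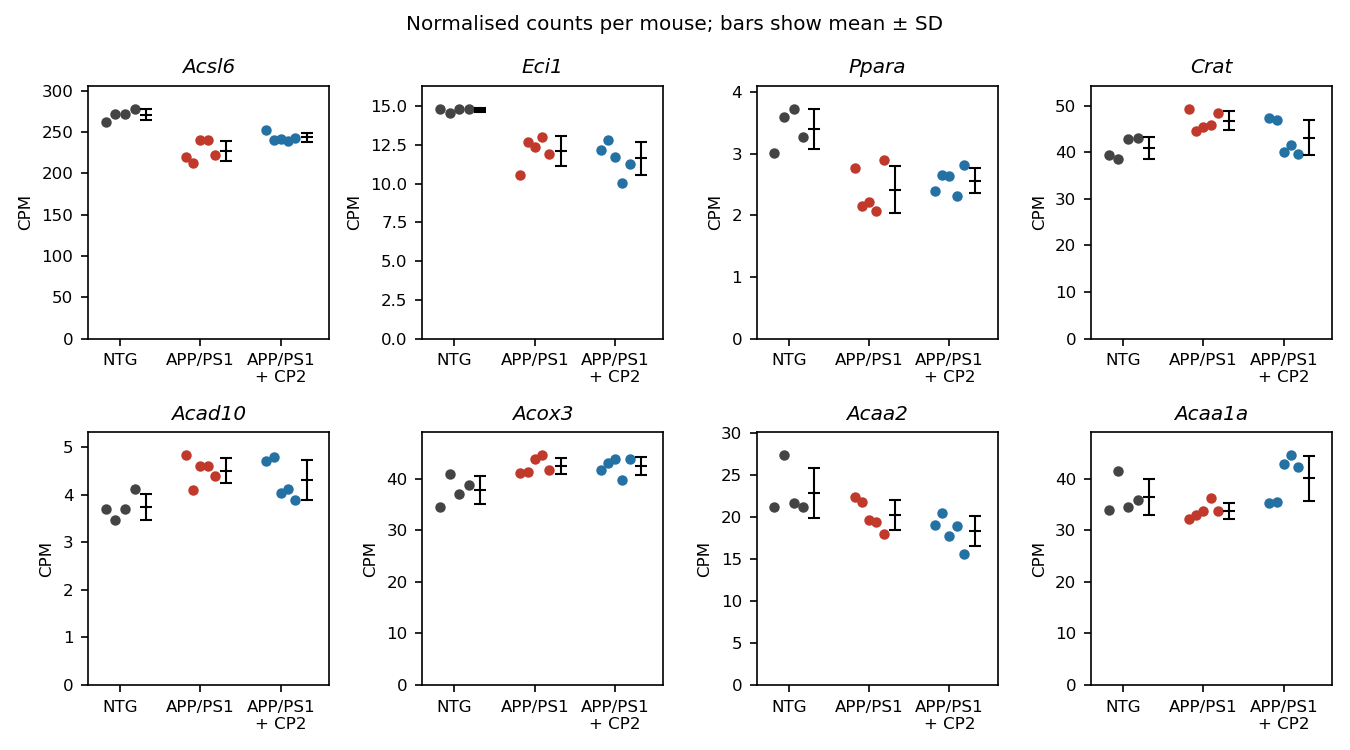
CPM per mouse (points) of 8 genes in NTG, APP/PS1 and CP2-treated APP/PS1 mice, with the mean ± SD of each group beside its points; the vertical axes start at 0. Acsl6, Eci1 and Ppara lie highest in NTG mice, with all APP/PS1 points below, whereas the Acaa1a points of 3 CP2-treated mice lie at 42.3 to 44.5, above all APP/PS1 points.

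Among other genes of the carnitine shuttle, Cpt1a was at 30.0, 31.4, 30.4 and 32.1 CPM in NTG and 29.4, 31.98, 31.4, 33.3 and 27.2 CPM in APP/PS1 mice (log2 fold change -0.0071, 95% interval -0.15 to 0.14). Cpt1c was at 74.7, 74.2, 84.6 and 83.7 against 80.6, 75.1, 69.8, 74.2 and 86.2 CPM (-0.03, -0.19 to 0.12). The groups overlapped throughout for both isoforms. Cpt2, the transferase on the inner membrane, was at 8.19, 7.45, 6.52 and 8.60 against 6.94, 9.40, 10.2, 8.95 and 8.20 CPM (0.19, -0.09 to 0.47), with the widest interval of these. Without mouse 16 Cpt2 was at 0.26 (unadjusted p = 0.0315, edgeR adjusted p = 0.174). For Slc25a20, the carnitine-acylcarnitine carrier, and Crot, the peroxisomal octanoyltransferase, log2 fold changes were -0.04 and -0.12, and for Cpt1b -0.28 with an SE of 0.21 at 1.15 to 2.48 CPM in the 9 mice.

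Of the 9 acyl-CoA dehydrogenases, which open each round for chains of different length, none passed the adjusted threshold. Acadvl, for very long chains, was at 48.2, 46.5, 43.0 and 47.0 CPM in NTG and 41.7, 47.6, 47.2, 45.2 and 42.0 CPM in APP/PS1 mice (log2 fold change -0.04, 95% interval -0.17 to 0.09). Reads over 42.9% of its exon bases could also belong to Dvl2 on the opposite strand, since the kit does not mark strand and reads were counted on every gene they overlapped. Acadl, for long chains, was at 32.04, 32.1, 29.8 and 36.8 against 28.2, 39.2, 34.5, 37.7 and 32.6 CPM (0.08, -0.14 to 0.31), with mouse 16 lowest. Acadm, for medium chains, was at 32.8, 30.7, 32.04 and 29.0 against 28.8, 33.4, 32.3, 30.9 and 29.8 CPM (0.0017, -0.13 to 0.13). These 3 genes overlapped fully between groups. Acads, Acadsb, Acad8, Acad9 and Acad11, which serve short and branched chains, complex I assembly (Acad9) or longer chains (Acad11), ranged from -0.12 (Acad11) to 0.10 (Acads).

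The trifunctional subunits did not pass the adjusted threshold either. Hadha was at 77.3, 69.7, 69.4 and 68.7 CPM in NTG and 64.6, 72.5, 72.6, 74.8 and 70.3 CPM in APP/PS1 mice (log2 fold change 0.0016, 95% interval -0.13 to 0.13). Hadhb was at 69.3, 61.2, 59.7 and 60.5 against 51.5, 56.9, 66.4, 66.8 and 54.5 CPM (-0.07, -0.28 to 0.13). NTG mouse 7 was highest for both subunits within its group and mouse 16 lowest within APP/PS1. Echs1 and Hadh, the hydratase and dehydrogenase for short chains, were at 0.02 and -0.04, and Acaa2, the mitochondrial thiolase, at -0.17 (adjusted p = 0.388), or -0.0696 without NTG mouse 8. Among the other enzymes for unsaturated chains, Eci2, Decr1 and Decr2 lay between -0.04 and 0.07.

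Etfdh, which hands electrons from the flavoprotein to ubiquinone, was at 27.6, 28.0, 26.9 and 26.9 CPM in NTG and 25.6, 28.5, 29.2, 29.1 and 27.0 CPM in APP/PS1 mice (log2 fold change 0.03, 95% interval -0.09 to 0.16). Etfa and Etfb were at -0.09 and -0.06. The peroxisomal genes Acaa1a, Hsd17b4 and Ehhadh were at -0.10, -0.01 and 0.15, and the synthetases Acsl1, Acsl3, Acsl4 and Acsl5 between -0.09 and 0.05. None of these 10 genes had an unadjusted p under 0.05.

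**Figure D4:**
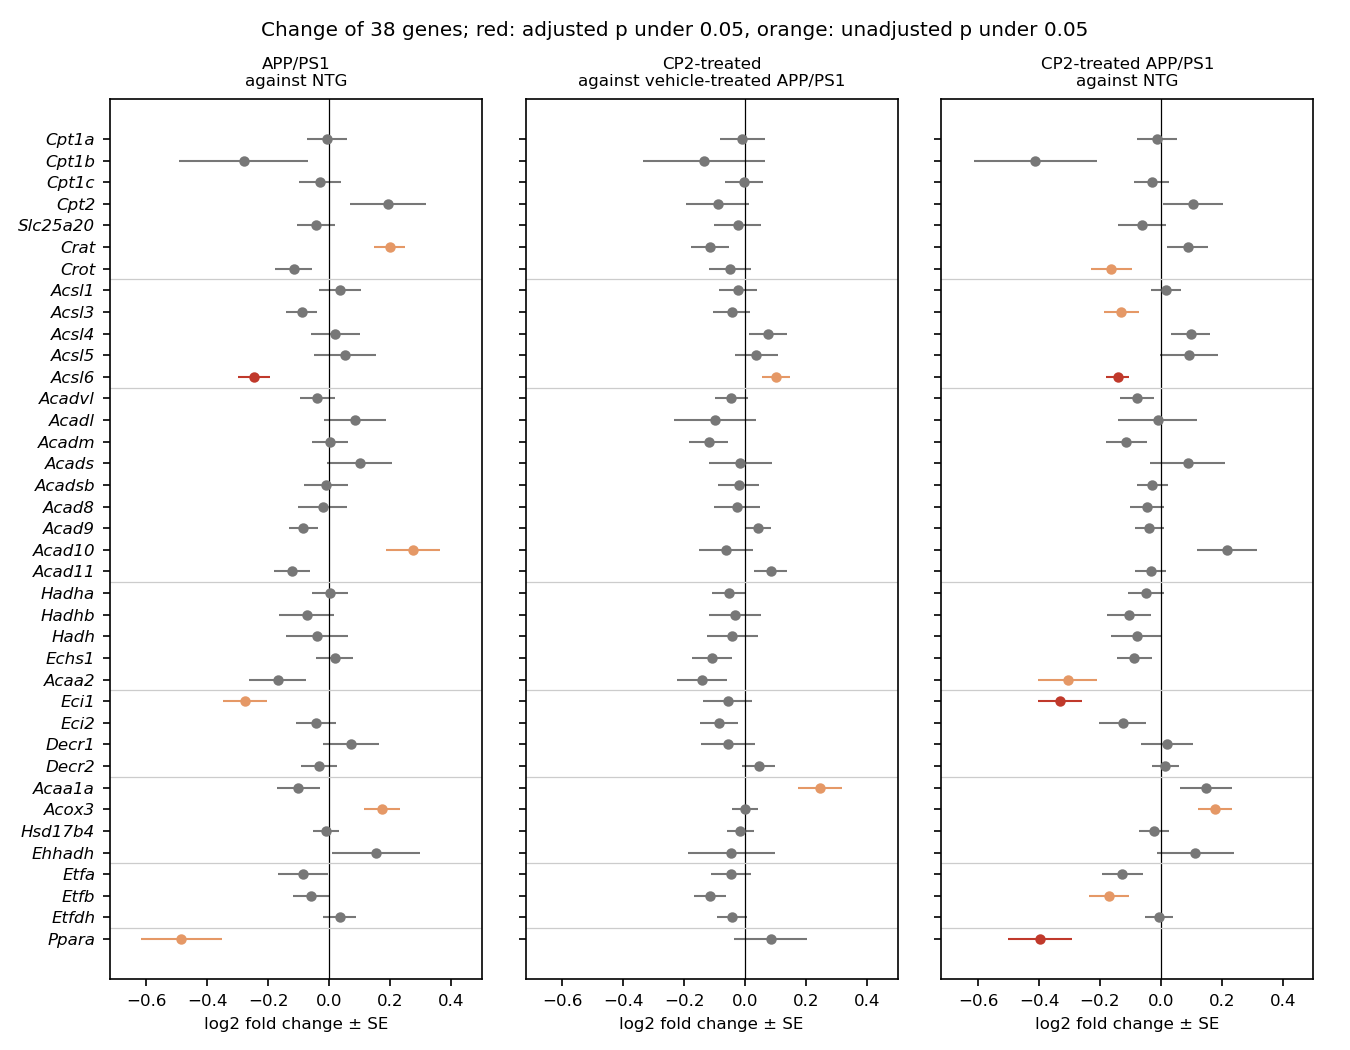
Log2 fold change ± SE (horizontal axis) of 38 genes in the 3 comparisons, with thin lines between roles; red marks an adjusted p under 0.05, orange an unadjusted p under 0.05. Acsl6 is red on the left and right, Eci1 and Ppara on the right, and no gene is red in the middle panel, where 30 of 38 points lie below 0.

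The second comparison asked what CP2 changed in APP/PS1 mice. None of the 38 genes passed at an adjusted p under 0.05 by edgeR, and none by DESeq2 or limma-voom, beside 0.00609% of the 16407 genes tested (1 gene). At an unadjusted p under 0.05 there were 2 genes (5.26%), both higher with CP2, beside 6.55% of all genes (2.88% higher). For 0 of the 38 did the groups separate, beside 1.14%. Log2 fold changes were small, from -0.14 (Acaa2) to 0.25 (Acaa1a), with a median of -0.043 beside -0.006 over all genes. They were below 0 for 30 of the 38 genes, beside 52.5% of all genes, and leaving out single mice gave 24 to 29. These genes share the same libraries and scaling and are not independent.

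Acaa1a, the peroxisomal thiolase, was at 32.3, 32.9, 33.7, 36.4 and 33.7 CPM in the vehicle-treated APP/PS1 mice and at 35.2, 35.6, 42.9, 44.5 and 42.3 CPM with CP2. Mice 23, 24 and 25 lay above all vehicle-treated mice, and mice 21 and 22 within their range. The log2 fold change was 0.25 (SE 0.07, unadjusted p = 0.00596, adjusted p = 0.744). NTG mice were at 33.97, 41.5, 34.6 and 36.0 CPM. Acaa1a shares 6.57% of its exon bases with Myd88 on the opposite strand and has a close paralog, Acaa1b, so part of its count may be misplaced. Acsl6, at the values given above, was at 0.10 (SE 0.04, unadjusted p = 0.0446, adjusted p = 0.744), and 3 of the 5 CP2-treated mice were above all vehicle-treated mice.

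Intervals for the steps of the mitochondrial pathway differed in width. With CP2, Cpt1a was at 34.3, 31.2, 27.6, 31.0 and 28.1 CPM (log2 fold change -0.0094, 95% interval -0.17 to 0.15) and Cpt1c at 71.0, 73.3, 79.5, 80.6 and 80.5 CPM (-0.0038, -0.14 to 0.13). Cpt2 was at 8.94, 8.37, 8.19, 8.43 and 7.10 CPM (-0.09, -0.32 to 0.14). All 7 genes of the carnitine shuttle had a log2 fold change below 0, from -0.13 (Cpt1b) to -0.0038, and none had an unadjusted p under 0.05. Crat was at 47.4, 47.0, 40.1, 41.6 and 39.7 CPM, with mice 21 and 22 in the vehicle-treated range and the other 3 within that of NTG (-0.12, SE 0.06, adjusted p = 0.749). For Acaa1a and Crat alike, mice 21 and 22 stood apart from mice 23, 24 and 25. Reactive astrocyte markers summed to 2378 and 2465 CPM in mice 21 and 22 and to 1481, 1473 and 1419 CPM in the other 3. Microglial markers summed to 990.7 and 1047 against 868, 751.4 and 718.9 CPM. Neuronal markers summed to 7372 and 7120 against 7980, 7989 and 7608 CPM. Oligodendrocyte markers were at 6500 and 6498 against 5926, 6034 and 5776 CPM, and general astrocyte markers at 4948 and 4935 against 4857, 4590 and 4569 CPM. Thalamic markers, at 530.2 and 648.5 against 790.8, 640.6 and 615.5 CPM, did not separate these mice. The part of these markers in either gene was not tested.

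Acadvl was at 43.9, 47.4, 42.9, 42.8 and 39.8 CPM with CP2 (log2 fold change -0.04, 95% interval -0.17 to 0.08) and Acadm at 29.2, 32.3, 28.1, 26.7 and 26.4 CPM (-0.12, -0.26 to 0.02). Acadl was at 36.0, 37.8, 32.6, 32.4 and 22.1 CPM (-0.10, -0.39 to 0.20), where mouse 25 was the lowest of all 14 mice and without it the log2 fold change was 0.0046. Hadha was at 70.9, 74.1, 68.0, 67.2 and 61.4 CPM (-0.05, -0.18 to 0.07) and Hadhb at 63.0, 62.9, 57.9, 54.2 and 51.3 CPM (-0.03, -0.22 to 0.15), with mouse 25 again lowest. Mouse 25 was lowest of its group for all 5 of these genes. Etfdh was at 27.8, 27.5, 26.9, 27.8 and 25.1 CPM (-0.04, -0.15 to 0.07), and Etfb at -0.12 (SE 0.05) came next to the threshold with an unadjusted p of 0.0532. Eci1 was at 12.2, 12.8, 11.7, 10.1 and 11.3 CPM (-0.06, -0.23 to 0.12), Ppara at 2.40, 2.65, 2.63, 2.32 and 2.82 CPM (0.08, -0.18 to 0.35), Acad10 at 4.72, 4.80, 4.04, 4.12 and 3.89 CPM (-0.06) and Acox3 at 41.6, 43.0, 43.8, 39.8 and 43.9 CPM (-0.0010). Without mouse 16, 4 genes had an unadjusted p under 0.05, beside 1575 of the 16503 genes tested in that fit (Acaa1a higher, and Echs1, Etfb and Acadm at -0.15, -0.13 and -0.14), with adjusted p from 0.474 to 0.521.

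The third comparison set CP2-treated APP/PS1 against NTG mice and shares its NTG mice with the first and its treated mice with the second. Eci1, Ppara and Acsl6 were lower. These 3 called genes were 7.89% of the 38, beside 6.02% of the 16416 genes tested (1.46% lower), and 8 genes (21.1%, 1 higher and 7 lower) had an unadjusted p under 0.05, beside 20.2% (11.6% higher and 8.59% lower). Groups did not overlap for 4 genes (10.5%, all lower), beside 9.61% (3.61% lower). Counted in either direction these shares were near those of all genes. Counted as lower alone they were above them, and as higher alone below them. The genes share the same libraries and NTG mice and are not independent, and the calls changed with the fit as given below. Log2 fold changes were below 0 for 26 of the 38 genes, beside 50.6%. The median log2 fold change was -0.036, beside -0.0015.

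Eci1 fell by 20.5% (log2 fold change -0.33, SE 0.07, edgeR adjusted p = 0.0218), with the highest treated mouse at 12.8 and the lowest NTG mouse at 14.5 CPM. Acsl6 fell by 9.39% (-0.14, SE 0.04, adjusted p = 0.0468), and Ppara had a log2 fold change of -0.40 (SE 0.10, adjusted p = 0.0492). Only Eci1 kept its call in all 8 other ways of fitting that used every mouse, and it lost it without NTG mouse 8, 9 or 10 (adjusted p = 0.0562, 0.0608 and 0.0505). Ppara and Acsl6 were no longer called with no filter, with at least 10 counts in every mouse, in the fit of all 3 groups or with the ribosomal RNA covariate (adjusted p from 0.0554 to 0.11), nor without NTG mouse 8, 9 or 10 or without any one CP2-treated mouse (adjusted p from 0.0502 to 0.141). Ppara also missed the threshold with upper-quartile factors (adjusted p = 0.0516). With the ribosomal RNA covariate the log2 fold changes were -0.38 for Ppara and -0.15 for Acsl6.

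Acaa2 was at 21.2, 27.3, 21.7 and 21.2 CPM in NTG, 22.4, 21.8, 19.7, 19.4 and 17.9 in APP/PS1 and 19.1, 20.5, 17.7, 18.9 and 15.6 CPM in CP2-treated mice. Treated mice lay below all NTG mice, and NTG mouse 8 was far above the rest (log2 fold change -0.31, SE 0.10, adjusted p = 0.0968). The other genes with an unadjusted p under 0.05 were Acox3 at 0.18, Etfb at -0.17, Crot at -0.16 and Acsl3 at -0.13, with adjusted p from 0.0970 to 0.229. Acsl3 was at 194, 211, 204 and 203 CPM in NTG and 177, 175, 212, 181 and 176 CPM in treated mice, and without mouse 23, at 212 CPM, it passed (log2 fold change -0.18, adjusted p = 0.0229).

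Members without per-mouse values above are given by their range over the 14 mice. In the carnitine shuttle Slc25a20 ran from 13.3 to 17.4 CPM, Crot from 28.8 to 37.4 and Cpt1b from 1.07 to 2.48. Among dehydrogenases the ranges were 6.21 to 8.89 CPM for Acads, 63.0 to 81.4 for Acadsb, 20.9 to 28.1 for Acad8, 37.1 to 43.8 for Acad9 and 22.8 to 27.6 for Acad11. Hadh ran from 20.1 to 27.9 CPM, Echs1 from 43.3 to 56.5, Eci2 from 24.2 to 33.4, Decr1 from 15.8 to 21.1 and Decr2 from 24.9 to 30.1. These ranges overlapped between all 3 groups. Hsd17b4 ran from 49.4 to 56.9 CPM, Ehhadh from 3.21 to 5.13, Etfa from 28.3 to 37.5 and Etfb from 20.4 to 26.1. Acsl1 ran from 39.6 to 51.3 CPM, Acsl4 from 79.9 to 104.0 and Acsl5 from 43.3 to 63.3. Acox2, which was not tested, lay at 0.183 ± 0.066, 0.198 ± 0.072 and 0.214 ± 0.076 CPM in NTG, APP/PS1 and CP2-treated mice (SD).

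Genes around the pathway were taken from 9 lists. At an adjusted p under 0.05, 5.68% of all genes tested passed in APP/PS1 against NTG. In CP2-treated APP/PS1 against NTG 6.02% passed. In lipid droplets and lipolysis, 2 of 9 genes passed in APP/PS1 against NTG, both higher. Plin4, a droplet coat protein, rose from 7.96 ± 0.87 to 26.3 ± 14.6 CPM (log2 fold change 1.73, SE 0.38, adjusted p = 0.0250) and Plin2, the common droplet coat protein, from 6.41 ± 0.74 to 9.37 ± 1.46 CPM (0.56, SE 0.13, adjusted p = 0.0349). With CP2, Plin4 was at 10.01 ± 1.61 CPM (-1.39 against vehicle, SE 0.34, unadjusted p = 0.0017, adjusted p = 0.744) and Plin2 at 8.32 ± 1.76. Lipa, the lysosomal lipase, rose against NTG in CP2-treated mice (0.37, adjusted p = 0.0115), 1 of 9.

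Of 16 tested PPAR partners and targets, 1 rose and 2 fell in APP/PS1 against NTG. Ucp2, an uncoupling protein family member also found in microglia, went from 18.4 ± 3.11 to 40.7 ± 6.51 CPM (log2 fold change 1.16, adjusted p = 0.00146) beside the rise of the microglial markers given above. Esrra, the estrogen-related receptor alpha of mitochondrial genes, went from 58.9 ± 0.87 to 49.97 ± 2.43 CPM (-0.23, adjusted p = 0.0129) and Sirt3, a mitochondrial deacetylase, from 58.6 ± 2.62 to 49.8 ± 1.77 CPM (-0.23, adjusted p = 0.0158). In CP2-treated mice against NTG the same list had 2 higher (Ucp2 at 0.93 and Lpin1, a PPAR coactivator and lipid phosphatase, at 0.31) and 2 lower (Esrra at -0.21 and Sirt3 at -0.23). The part of glial markers in these values was not tested.

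Of 10 genes for uptake and binding, none passed in APP/PS1 against NTG, and 2 fell in CP2-treated mice against NTG. These were Slc27a1, a fatty acid transporter (-0.30, adjusted p = 0.00588), and Acsbg1, an acyl-CoA synthetase found in astrocytes (-0.31, adjusted p = 0.0110). In the same comparison Acaca, which makes the malonyl-CoA that restrains CPT1, rose (0.23, adjusted p = 0.0368; 1 of 6 genes for fatty acid synthesis), and Acot1, an acyl-CoA thioesterase with a near-identical neighbour, Acot2, fell (-0.34, adjusted p = 0.0333; 1 of 7). The remaining lists had no gene with an adjusted p under 0.05 in any comparison. For ketone bodies (5 tested), Oxct1, which uses ketones, was at 284 ± 11.4, 264 ± 11.0 and 259 ± 12.6 CPM in NTG, APP/PS1 and CP2-treated mice. For propionate and branched chains (12), Mcee was at -0.28 and Dbt at -0.12 in APP/PS1 against NTG, for peroxisomal import (10) Pex5 at -0.13, and for carnitine synthesis (2) Bbox1 at -0.45 and Aldh9a1 at -0.05. Between vehicle-treated and CP2-treated APP/PS1 mice, none of the genes of these 9 lists had an adjusted p under 0.05.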

How the data were processed

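Brain RNA from 14 mice was sequenced by the authors from TruSeq RNA v2 libraries. Per the study's methods, reads were aligned to mm10 with TopHat2 and counted on Ensembl genes with featureCounts, a read counting on each gene it overlapped; versions of the aligner and counter are not given in the sources used here. The deposited table holds raw counts and RPKM values that the authors computed, and RPKM was used only to compare genes with each other. Each comparison was fitted on its 2 groups, with genes above 1 CPM in every mouse of at least 1 group, using edgeR 4.0.16 in R 4.3.3 (TMM factors 0.953 to 1.03, quasi-likelihood test, Benjamini-Hochberg adjustment over all genes tested). This replaces the study's DESeq2 test, which was run as an alternative (DESeq2 1.42.0), as were limma-voom with sample quality weights (limma 3.58.1), RLE and upper-quartile factors, no filter, at least 10 counts in every mouse, 1 fit of all 3 groups, the ribosomal RNA share as a covariate, and leaving out each mouse. The SE is the one implied by the test, and intervals are 95%. CPM shown use TMM factors over 14 mice. Procedures were tested on simulated data. Labels do not name litters, so p-values measure the spread between mice. No 2 libraries of a group were alike beyond sampling noise (26 pairs, lowest chi-square per degree of freedom 10.5). The members and lists were chosen with earlier results of these data known. Values in every mouse were given for genes past a threshold, for genes whose groups did not overlap, and for a fixed gene of each step; outside the pathway, called genes of each list (at most 4), or else the 2 with the smallest p, were named. Genes on more than 1 row of the table (Bdh2, Clec7a) were left out of the lists, and Tmlhe and Drd1 were not analysed here. Some genes that this rule names are not reported here.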

Additional observations from a re-analysis of the deposited data

Results flagged for a closer look

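In 6 of the 117 combinations of gene and group, 1 mouse stood apart from the others of its group by Dixon's criterion, and chance alone gives about 1 in 20. NTG mouse 7 was highest for Hadha (77.3 CPM, the others 68.7 to 69.7) and for Hadhb (69.3 CPM, the others 59.7 to 61.2). NTG mouse 8, which had the fewest counts and the highest ribosomal RNA-like share, was highest for Acaa2 (27.3 CPM, the others 21.2 to 21.7) and lowest for Eci1 (14.5 CPM, the others 14.8). CP2-treated mouse 23 was highest for Acsl3 (212 CPM, the others 175 to 181), and CP2-treated mouse 21 was highest for Acsl6 (253 CPM, the others 239 to 243). No explanation was tested for any of these.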

How the results depend on the processing

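No paired analysis was made, because the labels do not name litters or pairs of mice. In APP/PS1 against NTG, genes with an adjusted p under 0.05 numbered 1 and became 4 with DESeq2, 2 with RLE factors, 2 with upper-quartile factors, 3 with limma-voom, 3 in the fit of all 3 groups and 0 with the ribosomal RNA share as a covariate, and leaving out single mice gave 0 to 3. Over all genes tested there were 932, and 1667, 968, 918, 1563, 1306 and 720 under those alternatives in that order. In CP2-treated APP/PS1 against NTG, they numbered 3 and became 5 with DESeq2, 2 with upper-quartile factors and 1 with no filter, with at least 10 counts, in the fit of all 3 groups and with the ribosomal RNA covariate, and leaving out single mice gave 0 to 3. Over all genes tested there were 989, and 1670, 980, 891, 968, 725 and 752 in that order. In CP2-treated against vehicle-treated APP/PS1, genes with an unadjusted p under 0.05 numbered 2. They became 1 with upper-quartile factors, no filter or the ribosomal RNA covariate and 4 with limma-voom, and leaving out single mice gave 1 to 4. Over all genes tested there were 1074, and 1053, 1779, 727 and 1360 under those alternatives in that order. Leaving out single mice gave 642 to 1575 over all genes. The count of pathway genes at an adjusted p under 0.05 was 0 under every alternative run. The cause was not tested. Medians moved by less than the spread between mice (0.078). That spread is larger than the medians themselves, so it cannot show whether their sign held. In APP/PS1 against NTG the median of -0.027 became -0.0001 without mouse 16 and 0.0018 with limma-voom. Of 274 alternative values for genes with an unadjusted p under 0.05, 0 had the other sign. Those genes were picked by p in the same mice, so a change of sign was unlikely in advance. Among 1702 values for the other genes, 108 had the other sign, with a main log2 fold change of at most 0.15. Reads were fewest for Acox2 (9 to 26 per mouse) and Cpt1b (82 to 218); the part of depth and of group size in the calls was not tested.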
